A study of Mus musculus with 6 samples.

Results

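The genes described here encode the nuclear subunits of the 5 complexes of oxidative phosphorylation, with a few of their assembly factors, in CD4+TCRβ+ T cells. They were taken by gene symbol from transcript clusters that the platform annotation pairs with 1 symbol: Nduf genes of the a, b, c, s and v series for complex I, Sdha to Sdhd for complex II, all Uqc genes for complex III, Cox genes of the 4 to 8 series with a letter a to c for complex IV, and all Atp5 genes for complex V. Where a gene had several clusters, the cluster with the highest mean over the 6 arrays was used. This gave 82 of 19938 genes, with 35 in complex I, 4 in complex II, 11 in complex III, 15 in complex IV and 17 in complex V. The 11 genes of complex III held 8 subunits and the 3 assembly factors Uqcc1, Uqcc2 and Uqcc3. The symbol patterns leave out some subunits, among them Cox4i1 and Cyc1, and the 13 subunits encoded by mitochondrial DNA were not analysed here.

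The cells came from wild type C57BL/6J (B6) females and from females of the consomic strain B6-ChrY SJL, which carries the SJL Y chromosome on the same background. The females were naive, 8 weeks old and from litters of both sexes. They inherit no ChrY, so that the strains differed in the ChrY of the fathers and of any male littermates. RNA was taken from live CD4+TCRβ+ cells sorted from axillary, brachial and inguinal lymph nodes, with 3 pools a strain and 5 mice a pool, and 50 ng of it was amplified and read on 1 Affymetrix Mouse Gene 1.0 ST array for each pool. The comparison asks whether the paternal ChrY is linked to gene expression in CD4+TCRβ+ T cells of naive daughters.

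Complex I (NADH dehydrogenase) and complex II (succinate dehydrogenase) pass electrons from metabolites to ubiquinone, complex III passes them on to cytochrome c, and complex IV (cytochrome c oxidase) passes them to oxygen. Complexes I, III and IV pump protons across the inner mitochondrial membrane, and complex V (ATP synthase) uses the return of these protons to make ATP. Resting T cells draw much of their ATP from this chain, and activation increases both glycolysis and mitochondrial biogenesis.

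All values below are the deposited log2 values, and differences are B6-ChrY SJL minus B6 on the log2 scale. Any pair of arrays had a Pearson's r of 0.99 across transcript clusters, and their medians over the 23410 tested clusters lay between 6.55 and 6.59. All 9 CD4 T cell markers lay above 5.98, the background level used here (95th percentile of the means of 1205 clusters of olfactory and vomeronasal receptors), and none of them passed limma's test between strains. Of the 82 genes, 80 lay above that level. The exceptions were Cox7b2 and Cox8c, isoforms known from testis. In RNA of sorted pools, fewer cells of a type and less RNA per cell cannot be told apart.

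No gene of the 5 complexes passed an FDR of 0.05 (limma, Benjamini-Hochberg), where 4 of 23410 clusters did (0.0171%). That array-wide count was 0 with the linear model of the methods and 0 when all 35556 deposited clusters were tested. At limma's unadjusted p under 0.05, 3 of the 82 were higher in B6-ChrY SJL (Cox6a1 of complex IV, Ndufa6 of complex I and Atp5pb of complex V) and 0 were lower, against 4.69% of all clusters higher and 5.92% lower. Of the clusters above background, 3.99% were higher and 7.16% lower. In 8 genes all 3 B6-ChrY SJL pools lay above all 3 B6 pools, where 7.68% of all clusters did so. In 5 genes they lay below all B6 pools, where 9.42% of all clusters did so. The 8 genes are a share near that of the whole array, and the 5 genes a share under it. The counts at an unadjusted p under 0.05 depended on the setting, with 1 higher and 1 lower on median-centred arrays, 5 and 5 with a variance trend in limma, and 5 and 4 with the linear model of the methods. With the variance trend Cox6a1 also passed the FDR (adjusted p 0.0405).

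The differences of the 82 genes were small. Their median was 0.02, against 0.00 over all clusters tested and -0.02 over those above background. The median size of a difference was 0.05, against 0.08 and 0.07. Differences lay above 0 in 49 of the 82 genes, in 11444 of the 23410 clusters tested and in 6388 of the 14394 above background. The lowest was that of Sdhc at -0.14 and the highest that of Cox6a1 at 0.30. The 95% interval of the difference lay within 0.5 of 0 on the log2 scale for 82 of the 82 genes and within 0.25 for 50 of them. A change as large as the first bound is therefore outside the interval of every gene of the list, while smaller ones are not at this number of arrays.

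**Figure D1:**
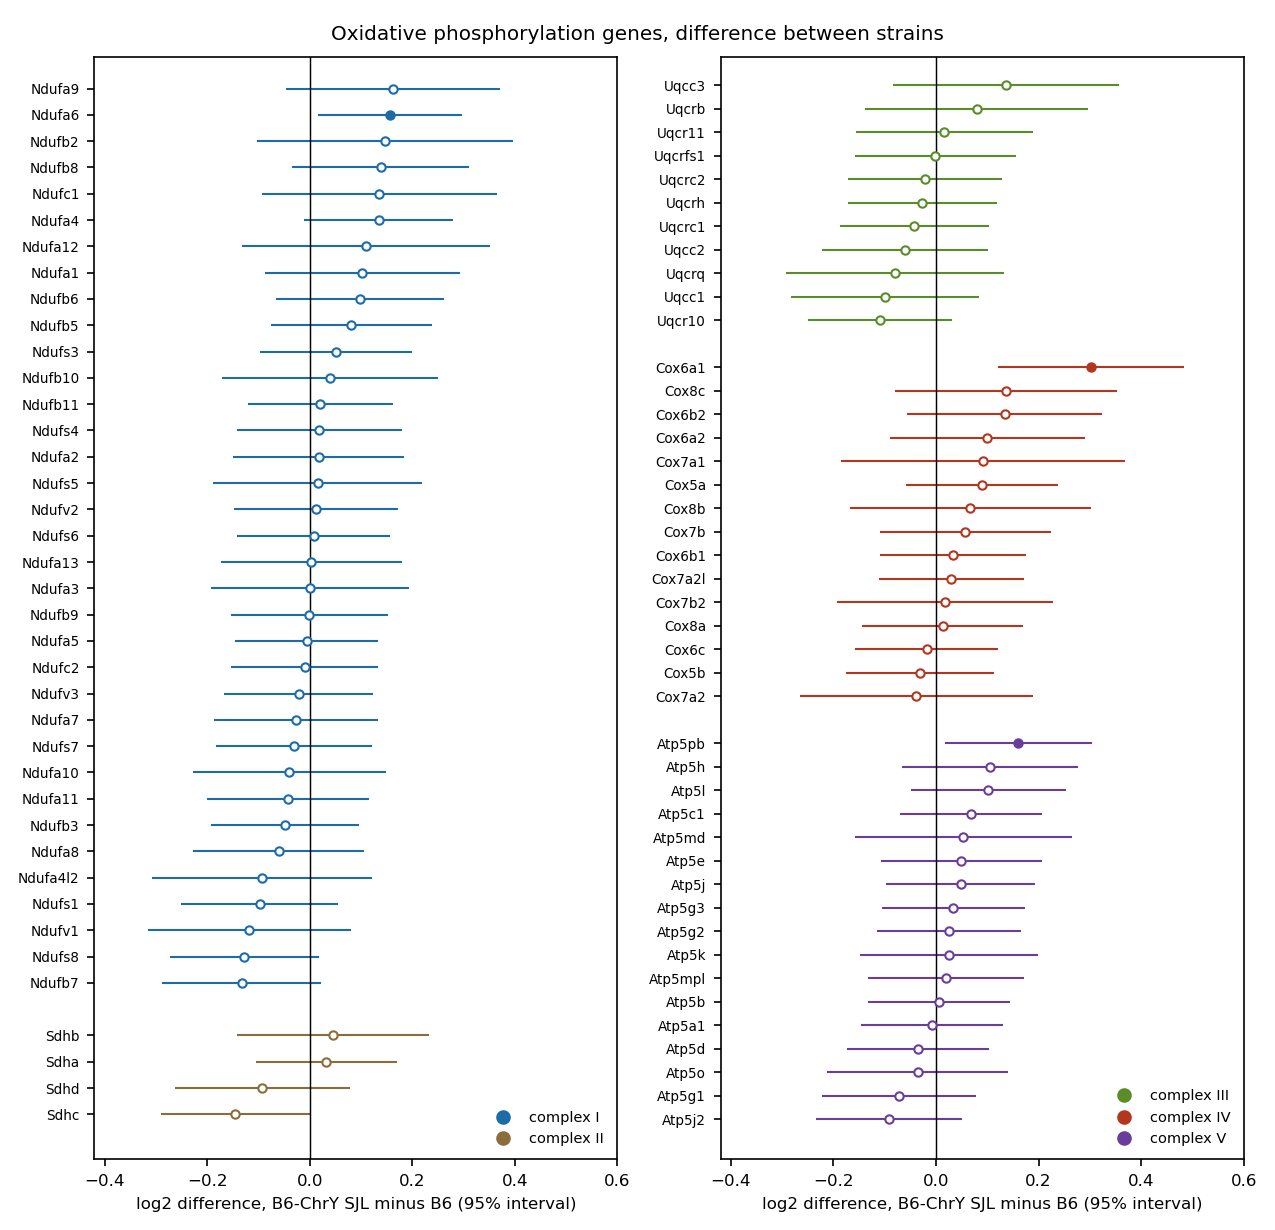
Difference between strains for the 82 genes, by complex, as B6-ChrY SJL minus B6 on the log2 scale. Points are limma's estimates from 3 pools a strain, bars are 95% intervals, and filled points mark the 3 genes at an unadjusted p under 0.05, Cox6a1, Ndufa6 and Atp5pb.

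The promoters of these 3 genes are shown because they were at limma's unadjusted p under 0.05, 1 from each of complexes IV, I and V. Their share of the 82 genes (3.66%) was under the 4.69% of all clusters that were higher at this p. For Atp5pb the value comes from a cluster whose neighbours are genes of another chromosome, and the cluster at the place of the gene, to which the promoter belongs, was at 0.07 with overlapping pools (limma's unadjusted p 0.378). Each stretch runs from 250 bases before the RefSeq transcription start to 30 bases after it (GRCm38.p6, minus strand, written 5′ to 3′), at chr5:115348929-115349208 for Cox6a1, chr15:82354262-82354541 for Ndufa6 and chr3:105959234-105959513 for Atp5pb. Capitals mark matches to motifs of factors known for promoters of mitochondrial or housekeeping genes: NRF1 (GCGCANGCG), ETS factors such as GABPA (CCGGAAG), YY1 (AAGATGG), the E-box bound by MYC (CACGTG) and the GC box of SP factors (GGGCGG), each on either strand.
Cox6a1: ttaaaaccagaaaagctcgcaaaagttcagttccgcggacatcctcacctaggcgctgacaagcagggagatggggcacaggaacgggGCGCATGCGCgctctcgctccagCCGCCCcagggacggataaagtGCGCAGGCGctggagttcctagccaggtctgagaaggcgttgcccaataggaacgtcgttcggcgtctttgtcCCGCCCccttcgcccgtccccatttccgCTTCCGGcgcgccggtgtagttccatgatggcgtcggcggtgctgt
Ndufa6: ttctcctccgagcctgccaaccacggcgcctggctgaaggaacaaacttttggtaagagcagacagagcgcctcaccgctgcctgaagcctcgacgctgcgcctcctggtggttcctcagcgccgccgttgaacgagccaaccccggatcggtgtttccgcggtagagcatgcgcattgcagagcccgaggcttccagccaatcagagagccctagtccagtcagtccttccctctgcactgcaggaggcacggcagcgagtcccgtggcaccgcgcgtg
Atp5pb: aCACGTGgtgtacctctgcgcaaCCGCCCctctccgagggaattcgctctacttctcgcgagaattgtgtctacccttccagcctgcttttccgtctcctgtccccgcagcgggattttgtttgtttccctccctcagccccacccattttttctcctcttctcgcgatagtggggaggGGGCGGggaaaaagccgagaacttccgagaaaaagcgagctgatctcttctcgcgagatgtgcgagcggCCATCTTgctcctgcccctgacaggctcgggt
The Cox6a1 stretch holds overlapping NRF1 matches from position -162, a further NRF1 match at -117, an ETS match at -16 and GC boxes at -139 and -44, counted from the transcription start. In Ndufa6 no match falls within the printed stretch. Its NRF1 match starts at position 25 and runs past the end, and a GC box starts beyond the end, at 43. Atp5pb holds the E-box at -249, GC boxes at -227 and -71 and a YY1 match at -2, across the start itself.

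RefSeq promoter windows of 250 bases before to 50 after the start were matched for 69 of the 82 genes, with 74 windows in all. NRF1 is a known regulator of nuclear respiratory genes, and 28.4% of these windows held its motif, against 12.3% of 12288 windows of genes above the background level and 6.25% of all 32851 windows. The ETS motif was in 23.0% (16.6% above background, 8.86% of all) and the YY1 motif in 14.9% (6.96% and 6.34%). The E-box was in 10.8% of the windows, close to the 9.82% of genes above background and the 7.15% of all. The GC box was in 41.9% of the windows, under the 60.4% of genes above background and over the 35.7% of all. NRF1 matches were uneven between complexes, in 7 of 31 genes of complex I, 2 of 3 of complex II and 3 of 8 of complex III. In complex IV they were in 1 of 12, Cox6a1, and in complex V in 7 of 15. A match in these letters is a description and not a binding site.

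**Figure D2:**
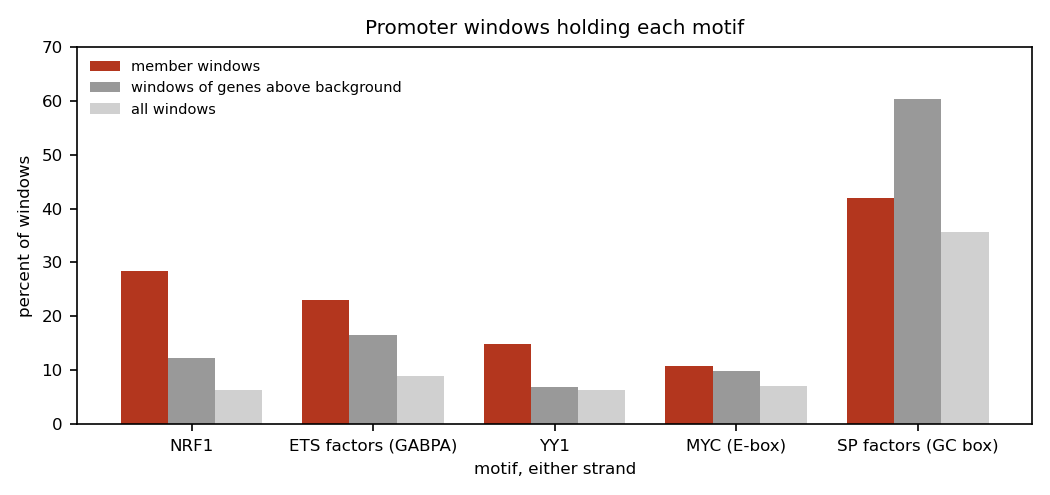
Percent of RefSeq promoter windows that hold each motif on either strand, for the 74 windows of the oxidative phosphorylation genes, for windows of genes above the background level and for all windows. The NRF1 bar of the oxidative phosphorylation genes stands at 28.4%, against 12.3% and 6.25%, and their GC box bar lies below that of genes above background.

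Complex IV held the largest single difference. Cox6a1, the isoform of subunit 6a used by most tissues, was at 11.67, 11.54 and 11.40 in the B6 pools and at 11.85, 11.83 and 11.84 in the B6-ChrY SJL pools. All B6-ChrY SJL pools lay above all B6 pools, and they lay close together while the B6 pools were spread out. The means were 11.54 ± 0.13 (SD, n = 3 pools) and 11.84 ± 0.01, a 1.23-fold difference (difference 0.30, SE 0.08). Limma gave this an unadjusted p of 0.00483 and an adjusted p of 0.321. Without B6 replicate 3, the lowest pool, the difference was 0.23. The unadjusted p stayed under 0.05 without each pool in turn (0.00194 to 0.018).

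Cox6a2, the heart and skeletal muscle isoform of the same subunit, was 0.10 higher with overlapping pools (SE 0.08). Cox5a, a matrix-side subunit, was the other gene of complex IV without overlap in its brightest cluster. It was at 10.34, 10.20 and 10.28 in the B6 pools and at 10.35, 10.37 and 10.37 in those of B6-ChrY SJL (difference 0.09, limma's unadjusted p 0.201). The B6-ChrY SJL pools began where the B6 pools ended.

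The other isoforms of complex IV had differences with intervals that included 0. Of subunit 6b, the general Cox6b1 was at 0.03 and the testis form Cox6b2 at 0.13, and of subunit 7a the muscle form Cox7a1 was at 0.09 and the general Cox7a2 at -0.04, the lowest of the complex. Cox7a2l, which joins complexes III and IV in supercomplexes, was at 0.03. Cox7b was at 0.06, and Cox7b2, below background, at 0.02. Among the forms of subunit 8, Cox8a was at 0.01, Cox8b, a muscle form, at 0.07 and Cox8c, below background, at 0.14.

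The 6 isoforms known from muscle or testis (Cox6a2, Cox6b2, Cox7a1, Cox7b2, Cox8b, Cox8c) all had a difference above 0, with a median of 0.10, but 2 of them lay below the background level and Cox8b and Cox6b2 just above it, at means of 6.03 and 6.20. The 9 subunits of general use had a median of 0.03, with 6 above 0. Over all 15 genes the median was 0.06, and 12 of the 15 were above 0. This was the highest median of the 5 complexes, but without B6 replicate 3 that of complex V was higher (0.0496 against 0.0364 for complex IV), and likewise without B6-ChrY SJL replicate 3 (0.0473 against 0.0378). When each gene was centred on its 6-array mean, the mean of complex IV was -0.03, -0.02 and -0.05 in the B6 pools and 0.04, 0.01 and 0.05 in the B6-ChrY SJL pools. The strains did not overlap on this mean, which is a description over genes of 1 complex and carries no test. They did not overlap either without Cox6a1 (-0.034 to -0.0113 in B6 and -0.002 to 0.045 in B6-ChrY SJL) or with the 13 genes above background. The same held with median-centred arrays and with quantile normalization repeated, where the nearest pools were at -0.0053 and -0.0043. The 9 subunits of general use, Cox6a1 among them, separated the strains narrowly (-0.0401 to -0.0096 in B6 and -0.0034 to 0.0569 in B6-ChrY SJL). The 6 muscle or testis isoforms overlapped (-0.0927 to 0.0097 and -0.0672 to 0.1358). The general subunits without Cox6a1 were not examined apart, so the separation cannot be assigned to the complex as a whole. Separation was not particular to complex IV, since the centred mean of complex II separated the strains in the opposite direction and that of 67 cytosolic ribosomal protein genes in the same one (-0.03 to -0.01 in B6 and 0.01 to 0.05 in B6-ChrY SJL).

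**Figure D3:**
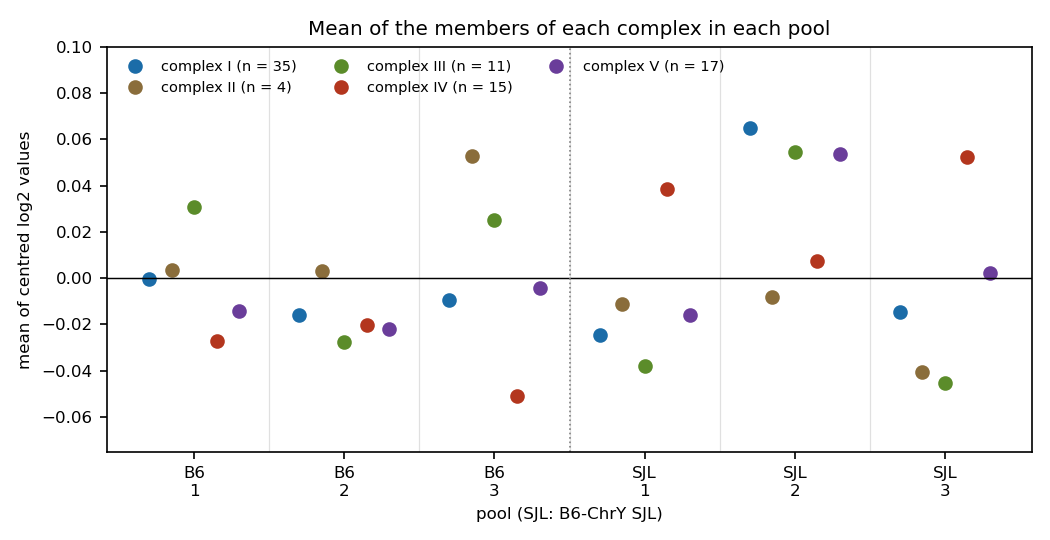
Mean of the centred log2 values (each gene minus its mean over 6 arrays) of the genes of each complex in each pool, with B6 pools left of the dotted line and B6-ChrY SJL pools (marked SJL) right of it. Complex IV lies below 0 in the B6 pools and above 0 in the B6-ChrY SJL pools, complex II lies the other way around on these values, and complexes I, III and V are highest in B6-ChrY SJL replicate 2.

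In complex I, Ndufa6 had the smallest p. Ndufa6 is an accessory subunit of the matrix arm, of the LYR family that binds acyl carrier protein. It was at 8.95, 8.99 and 8.97 in B6 and at 9.08, 9.13 and 9.16 in B6-ChrY SJL, a difference of 0.16 (SE 0.06). The pools of each strain lay close together and did not overlap, and limma's unadjusted p was 0.0329 (adjusted p = 0.437). This p passed 0.05 without B6-ChrY SJL replicate 1 and did not without any other single pool (0.0554 to 0.0968).

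Ndufa4 was first described in complex I and was later assigned to complex IV. It was at 10.80, 10.75 and 10.73 in B6 and at 10.89, 10.95 and 10.85 in B6-ChrY SJL, without overlap (difference 0.13, limma's unadjusted p 0.0653). Its paralogue Ndufa4l2, a hypoxia-induced gene, lay near the background level, with a difference of -0.09. The highest difference of the complex was 0.16 in Ndufa9, a subunit at the junction of the matrix and membrane arms, but B6 replicates 1 and 2 at 9.18 and 9.20 overlapped the B6-ChrY SJL pools at 9.17, 9.33 and 9.30. Of the other genes of the complex, Ndufb2 was at 0.15, Ndufb8 at 0.14 and Ndufc1 at 0.14, all with overlapping pools.

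At the other end, 2 genes of complex I lay lower without overlap. Ndufs8, a core subunit that holds iron-sulphur clusters, was at 9.55, 9.47 and 9.55 in B6 and at 9.40, 9.44 and 9.35 in B6-ChrY SJL (difference -0.13, SE 0.06, limma's unadjusted p 0.079). Ndufb7, an accessory subunit of the membrane arm that faces the intermembrane space, was at 11.02, 11.03 and 10.97 in B6 and at 10.80, 10.96 and 10.86 in B6-ChrY SJL (difference -0.13, SE 0.07, limma's unadjusted p 0.0848). In both genes the nearest pools of the strains almost met, B6 replicate 2 with B6-ChrY SJL replicate 2 in Ndufs8 and B6 replicate 3 with B6-ChrY SJL replicate 2 in Ndufb7.

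By role, the 6 core subunits measured (Ndufv1, Ndufv2, Ndufs1, Ndufs3, Ndufs7, Ndufs8), which carry NADH oxidation and the path of the electrons, had a median difference of -0.06, with 2 of 6 above 0. Ndufv1, which binds NADH, was at -0.12 and Ndufs1, the largest subunit, at -0.10, each with overlap. The 14 Ndufa genes had a median of 0.00 and the 9 Ndufb genes, of the membrane arm, a median of 0.04. Over the 35 genes the median was 0.01, with 20 above 0, and their centred mean did not separate the strains. The sign of this median was not stable, at -0.0131 without B6-ChrY SJL replicate 2 and -0.0025 with median-centred arrays.

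Complex II, the only one of the chain that is also an enzyme of the tricarboxylic acid cycle and that pumps no protons, had 4 genes. Sdhc, a membrane anchor that binds haem, was at 10.78, 10.67 and 10.74 in B6 and at 10.58, 10.61 and 10.56 in B6-ChrY SJL. The strains did not overlap, and the difference of -0.14 (SE 0.06) was the lowest of the 82 genes, with an unadjusted p of 0.0511 and an adjusted p of 0.473 by limma. Sdhd, the other anchor, was at -0.09 with overlapping pools.

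Sdha, the flavoprotein that oxidizes succinate, was at 10.33, 10.34 and 10.31 in B6 and at 10.34, 10.35 and 10.39 in B6-ChrY SJL, a difference of 0.03 (SE 0.06). The strains did not overlap, although the difference was smaller than its error. Sdhb, the iron-sulphur subunit, was at 0.05 with overlap. The median of the 4 genes was -0.03, and -0.0089 without B6 replicate 3. Their centred mean was 0.0035, 0.0032 and 0.0527 in the B6 pools and -0.011, -0.0079 and -0.0405 in the B6-ChrY SJL pools. The strains did not overlap on it, but they did with median-centred arrays, with quantile normalization repeated and without Sdhc.

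In complex III, 8 of the 11 genes had a difference below 0 and the median was -0.03. Uqcr10, a small subunit, was at 10.60, 10.58 and 10.54 in B6 and at 10.49, 10.46 and 10.44 in B6-ChrY SJL. This was the only gene of the complex without overlap (difference -0.11, SE 0.06, limma's unadjusted p 0.11). Uqcrq was at -0.08, and Uqcrfs1, the Rieske iron-sulphur protein, at 0.00. The assembly factors, which act in the making of cytochrome b, differed in sign, with Uqcc3 at 0.14, Uqcc1 at -0.10 and Uqcc2 at -0.06, and their pools overlapped.

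In complex V, Atp5pb had the smallest p. Atp5pb is subunit b of the peripheral stalk, which holds the catalytic head against rotation. It was at 10.84, 10.83 and 10.87 in B6 and at 10.95, 11.05 and 11.01 in B6-ChrY SJL, without overlap (difference 0.16, SE 0.06). Limma's unadjusted p was 0.0328 and its adjusted p 0.437. This value comes from a cluster whose neighbours in the array's numbering belong to genes of another chromosome, and the cluster at the place of the gene was at 0.07 with an SE of 0.07, as given beside the promoter. As in Ndufa6, the p of the brighter cluster passed 0.05 without B6-ChrY SJL replicate 1 and did not without any other single pool (0.0549 to 0.0868).

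The 4 stalk genes had a median of 0.08, with Atp5h (subunit d) at 0.11, Atp5j (F6) at 0.05 and Atp5o (the oligomycin sensitivity subunit) at -0.04. In the catalytic head, Atp5c1, the rotating gamma subunit, was at 11.72, 11.73 and 11.71 in B6 and at 11.76, 11.81 and 11.81 in B6-ChrY SJL. The strains did not overlap, but the difference was 0.07 with an SE of 0.06. Atp5a1 and Atp5b, the alpha and beta subunits that make ATP, were at -0.01 and 0.01, and the 5 genes of the head had a median of 0.01.

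The ring of c subunits, which turns as protons pass, is made from 3 genes for the same mature protein: Atp5g1 was at -0.07, Atp5g2 at 0.03 and Atp5g3 at 0.03. Among small membrane subunits, Atp5l (subunit g) was at 12.01, 11.95 and 11.97 in B6 and at 12.04, 12.16 and 12.03 in B6-ChrY SJL, a difference of 0.10 (SE 0.07). Atp5j2 (subunit f) was at 11.58, 11.67 and 11.63 in B6 and at 11.56, 11.52 and 11.54 in B6-ChrY SJL, a difference of -0.09 (SE 0.06). Both showed no overlap, in opposite directions, with limma's unadjusted p at 0.159 and 0.179. The Atp5l value comes from a cluster whose neighbours are genes of another chromosome, and in every other cluster of Atp5l the pools overlapped. The cluster at the place of Atp5l was at 0.06 (limma's unadjusted p 0.369). The 17 genes of the complex had a median of 0.03, with 12 above 0. This median was 0.0029 without B6-ChrY SJL replicate 2, 0.0496 without B6 replicate 3, 0.0473 without B6-ChrY SJL replicate 3, 0.0452 without B6-ChrY SJL replicate 1 and 0.0439 without B6 replicate 1.

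**Figure D4:**
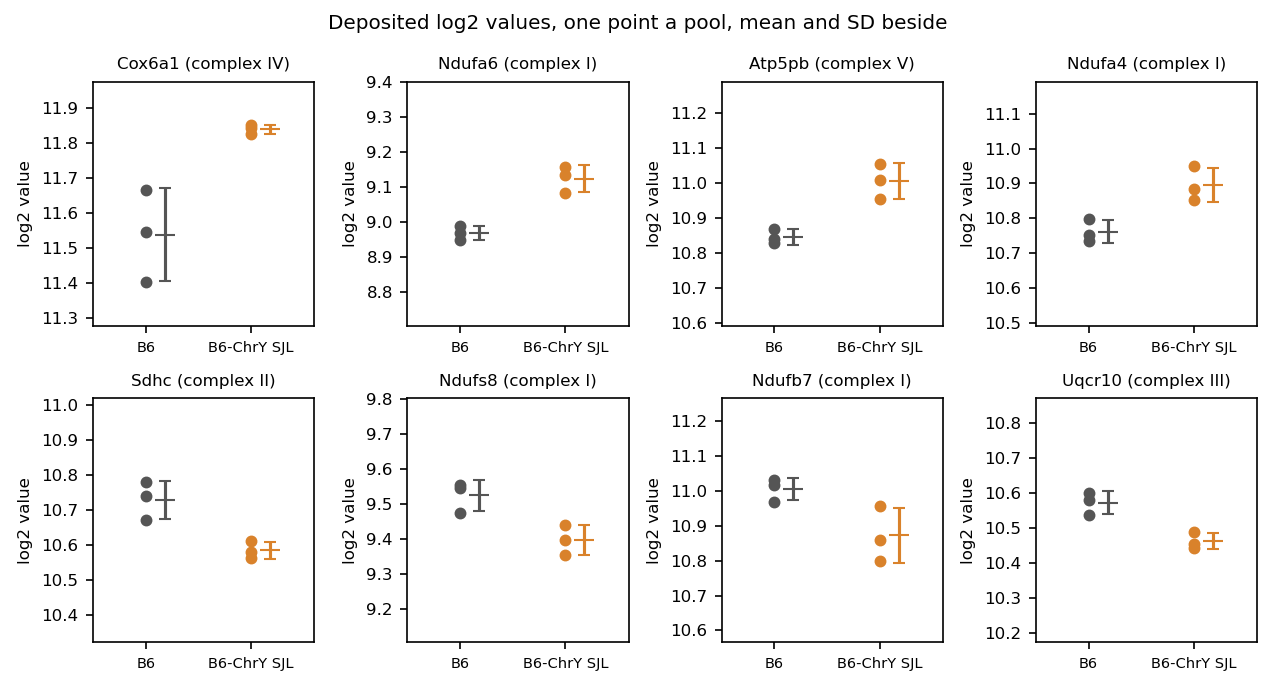
Deposited log2 values of 8 genes in each pool (points), with the mean and SD of 3 pools beside them, and every axis spanning the same range. Cox6a1, Ndufa6, Atp5pb and Ndufa4 lie higher in B6-ChrY SJL, and Sdhc, Ndufs8, Ndufb7 and Uqcr10 lie lower, without overlap and with no adjusted p below 0.321.

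Several clusters carried the symbol of 1 gene in 17 of the 82 genes, and in 8 of these (Atp5pb, Atp5g2, Atp5l, Atp5md, Cox6c, Cox7b, Ndufa11 and Ndufb11) the brightest cluster had neighbours from another chromosome. Over the whole array, the neighbours of 96.8% of clusters were genes of the cluster's own chromosome. Clusters of 1 gene did not always give 1 sign. Ndufa11 was at -0.04 in the brightest cluster and at 0.12 in the cluster at the place of the gene, and Cox6c at -0.02 and 0.12. In both genes the pools overlapped in the brightest cluster and did not overlap in the cluster at the place of the gene. In Cox5b and Uqcc2 the brightest cluster was the one at the place of the gene, at -0.03 and -0.06, and the other cluster was at 0.27 and 0.17. The 3 clusters of Atp5g2 were at 0.03, 0.00 and -0.01, and the 6 clusters of Atp5l were all above 0, from 0.06 to 0.13. None of these differences passed limma's unadjusted p of 0.05 except that of the brightest Atp5pb cluster.

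Many of these genes had their highest value in 1 pool. B6-ChrY SJL replicate 2 held the highest value of 35 of the 82 genes (42.7%), against 20.0% of clusters above background and 16.3% of all clusters tested. With arrays centred on their medians it held the highest value of 41 genes (50.0%, against 23.6% of clusters above background), and with quantile normalization repeated of 23 (28.0% against 18.4%). By complex these were 17 of 35 genes in complex I, 0 of 4 in complex II, 3 of 11 in complex III, 5 of 15 in complex IV and 10 of 17 in complex V. The centred mean of all 82 genes was 0.05 in this pool and between -0.02 and 0.00 in the other 5. The same pool held the highest value of 34 of 67 cytosolic ribosomal protein genes (50.7%) and of 24 of 77 mitochondrial ribosomal protein genes (31.2%). The pool differed from the other 2 of its strain in this measure, and no test was made of 1 pool.

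**Figure D5:**
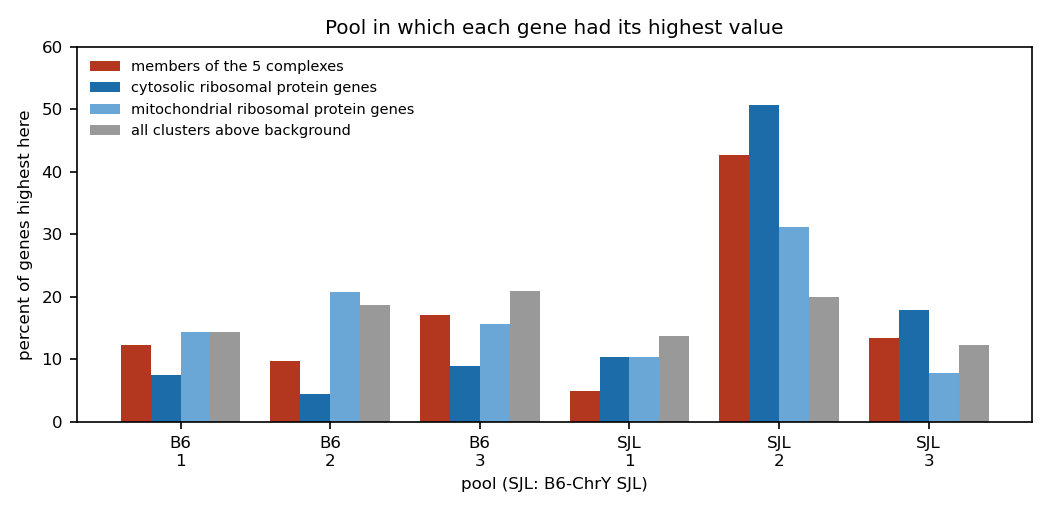
Percent of genes whose highest of 6 values fell in each pool, for the 82 oxidative phosphorylation genes, for cytosolic and mitochondrial ribosomal protein genes and for all clusters above background. B6-ChrY SJL replicate 2 (SJL 2) held the highest value of 42.7% of the oxidative phosphorylation genes, against 20.0% of clusters above background.

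Markers of other cells and states also differed between pools. The centred mean of 13 B cell markers, 8 of them above background, was -0.17 to -0.07 in the B6 pools and -0.20, 0.22 and 0.32 in the B6-ChrY SJL pools. That of 9 CD8 T cell and natural killer cell markers, 5 above background, was 0.06 to 0.10 in B6 and -0.10 to -0.04 in B6-ChrY SJL. For 14 cell cycle genes it was 0.12 to 0.15 in B6 and -0.24 to -0.04 in B6-ChrY SJL, and for 11 genes of activated or memory T cells 0.19 to 0.28 and -0.33 to -0.15. The last list held genes chosen because they differ in these arrays, so its direction is no independent evidence. The strains overlapped on the centred means of 12 myeloid and granulocyte markers, 4 above background (-0.0162 to 0.0344 in B6 and -0.0223 to 0.0265 in B6-ChrY SJL). They also overlapped on 9 lymph node stromal markers, 6 above background (-0.0783 to 0.0044 and -0.0094 to 0.0745), and on 2 erythroid markers (-0.1174 to 0.0814 and -0.0666 to 0.0456). The part of these cells and states in the values of Cox6a1, Ndufa6, Atp5pb, complex IV or B6-ChrY SJL replicate 2 was not tested.

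Genes around the chain are read against the same shares of all clusters at an unadjusted p under 0.05, 4.69% higher and 5.92% lower. Above background these shares were 3.99% and 7.16%. Among 12 electron carriers and subunits outside the symbol patterns none was at limma's unadjusted p under 0.05, and their median was 0.00. The smallest p belonged to Etfa at 0.12 and Etfb at -0.10, the subunits of the electron transfer flavoprotein. Of 14 assembly factors of complex I, 1 was lower (7.14%) at an unadjusted p under 0.05 and 0 higher, with a median of -0.03. This was Ndufaf6 at -0.30 (SE 0.10, limma's unadjusted p 0.0206), from 6.44 in B6 to 6.15 in B6-ChrY SJL, without overlap. Its B6-ChrY SJL pools were at 6.06, 6.38 and 5.99, close to the background level of 5.98, which limits this value. Ecsit followed at -0.16.

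Of 28 assembly factors of complexes II to V, 1 was higher at that threshold (3.57%, against 4.69% of all clusters and 3.99% of those above background). In the other direction, 3 were lower (10.7%, against 5.92% and 7.16%), and the median was -0.02. Atpaf2, a chaperone of the ATP synthase head, was at -0.23, and Coa6, a factor for the copper centre of complex IV, at 0.21, both without overlap. Of 17 genes of the tricarboxylic acid cycle and pyruvate entry, 1 was lower (5.88%), Idh3b at -0.16, followed by Dlst at -0.11, and the median was -0.03.

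Of 19 regulators of mitochondrial biogenesis and mitochondrial DNA expression, 3 were lower (15.8%, against 5.92% of all clusters and 7.16% of those above background) and 0 higher, with a median of -0.01. These included the kinase gene Mtor at -0.19 (limma's unadjusted p 0.0164) and Tfb1m, a methyltransferase of mitochondrial ribosomal RNA, at -0.20. Of 20 carriers, pores and import genes, 1 was higher and 1 lower (5.00% each), with a median of -0.03. These were Timm23, the channel of the inner membrane translocase, at 0.20 (limma's unadjusted p 0.0141), and Timm44, which tethers its motor, at -0.17. None of the genes in these 6 lists passed an FDR of 0.05, and the smallest adjusted p among them was 0.376.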

How the data were processed

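The arrays measured RNA of sorted CD4+TCRβ+ cells in 6 pools. The deposited values are on the log2 scale, 1 for each transcript cluster on each array, as the authors obtained them by RMA in Partek, which corrects background, equalizes the distributions and summarizes probes. GCOS and the mm9 build stand in the submitters' processing notes too. RMA draws arrays to 1 distribution, so a shift shared by most transcripts would be removed. Columns were matched to samples by their headers, and pools were grouped by the strain in the sample titles. Of 35556 deposited clusters, the 23410 with a gene symbol in the platform annotation entered a linear model of strain without a block (limma 3.58.1, R 4.3.3, functions lmFit and eBayes). FDR and adjusted p are Benjamini-Hochberg values over all of them, and 95% intervals use the moderated standard error. Cluster values were not normalized again. The fit was tested on simulated data before use.

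Members and gene lists were chosen with earlier results of these data known, and the list of activated or memory T cell genes and the naming rule with them. The genes named were the 4 with the smallest p of each complex, all of complex II, those at an unadjusted p under 0.05, without overlap or below background, the highest and lowest of each complex, isoform families, members whose clusters differ in sign, and the 2 list genes with the smallest p. Others (Ndufb2, Ndufb8, Ndufc1, Uqcrfs1, the core subunits of complex I, Cox7a2l, the other genes of complex V) were named after their values were seen. Clusters with several symbols were tested but not taken as members. The place of a cluster was judged from the chromosomes (RefSeq table, GRCm38.p6) of the 15 clusters on either side in number. Promoters and motifs come from RefSeq windows of the same build, used for sequence only. Replicates are pools of different mice as the labels give them, p-values measure the spread between pools, and an exact permutation test of 3 against 3 cannot give a p below 0.1. Their number and the signal over background limit the precision. Alternatives were a variance trend, array weights, a filter on dim clusters, all deposited clusters, a mean over the clusters of a gene, median-centring, repeated quantile normalization, the linear model of the methods without moderation, updated symbols, a block for the replicate number, and leaving out each pool. The use of the cluster at the place of the gene, of members above background alone, and the other settings for the counts of highest pools and the means of complexes II and IV were chosen after seeing the data. Python 3.11.15 with matplotlib 3.10.9 drew the figures.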

Additional observations from a re-analysis of the deposited data

How the results depend on the processing

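No gene of the 5 complexes changed sign under any of the alternatives among the 13 whose groups did not overlap, and Cox6a1 stayed at an unadjusted p under 0.05 in every one, from 9.17e-05 to 0.018. The count past an FDR of 0.05 was 0 except with a variance trend, where it was 1 (Cox6a1, adjusted p 0.0405) and 55 clusters passed in all. The 3 genes higher at an unadjusted p under 0.05 became 5 under the variance trend, the linear model of the methods and repeated quantile normalization, and 1 with median-centred arrays, where the median of all clusters moved from 0.00 to -0.01. The 0 genes lower became 1 with array weights, clusters above background only, median-centred arrays and repeated quantile normalization, 4 with the linear model of the methods and 5 with the variance trend. With each pool left out the higher count was 1 to 4 and the lower count 0 to 1, and Cox6a1 was the 1 higher gene when replicate 3 of either strain was left out. The median of complex IV was 0.0325 with repeated quantile normalization, 0.0901 with the cluster at the place of the gene, and 0.0364 to 0.063 with each pool left out, lowest without B6 replicate 3. With each pool left out, the medians of complexes I, II, III and V lay at -0.0131 to 0.0204, -0.0494 to -0.0089, -0.0421 to -0.0246 and 0.0029 to 0.0496. The cause of these moves was not tested.

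Replicate numbers did not pair the pools: deviations of same-numbered pools correlated at -0.0001, -0.04 and -0.02. With the replicate block, 1 gene (Cox6a1) was higher at an unadjusted p under 0.05 and the smallest adjusted p of the 82 was 0.446. Signal over background limits Cox7b2, Cox8b, Cox8c, Cox6b2 and Ndufa4l2, for which the values cannot show a change in a transcript that may not be expressed.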

Other observations

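Clusters that carry 2 symbols were not counted among the 82 genes, and 6 of them hold a symbol of the patterns. The 3 clusters of Cox7c, a small subunit of complex IV, share their symbol with Gm12338 and were at 0.21, 0.26 and 0.08 (B6-ChrY SJL minus B6, log2), each with its highest value in B6-ChrY SJL replicate 2 and with overlapping pools. The clusters that Ndufb4 shares with Ndufb4b were at 0.12 and 0.06, also with the highest value in B6-ChrY SJL replicate 2. The cluster that Ndufs5 shares with Ndufs5-ps was at 0.16 without overlap (limma's unadjusted p 0.0522), while the cluster of Ndufs5 alone was at 0.02 with overlapping pools.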
